A study of Mus musculus with 8 samples.

Results

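CLIP–seq of Flag-tagged MBD5 in mouse embryonic stem (mES) cells gave 4019 reproducible binding regions, of which 401 had no reproducible Flag-MBD6 region on the same strand. These 401 regions, referred to here as MBD5-only regions, were the subject of the analysis. A reproducible region was the same-strand merge of the peaks that overlapped a peak of the other library of the same protein by at least 1 bp, and an MBD5 region counted as shared when it overlapped any of the 7484 MBD6 regions by at least 1 bp. The MBD5-only regions were therefore chosen by peak calls in the very libraries described here, and their share of all MBD5 regions, 9.98%, is the level against which counts in genes and gene groups are read. The opposite classes held 3618 shared MBD5 regions and 3917 MBD6 regions with no MBD5 region (MBD6-only).

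The study holds 4 groups of 2 samples each: CLIP and input of Flag-MBD5 cells and CLIP and input of Flag-MBD6 cells. All come from wild-type mES cells that stably overexpressed the human coding sequence of MBD5 or MBD6 with a 3XFlag tag under hygromycin selection. MBD5 and MBD6 RNA contacts were thus measured with overexpressed human proteins. The cells grew with LIF and a pair of kinase inhibitors, and feeder cells had been removed by passages on gelatin. Peaks were analysed for the 4 CLIP libraries; the 4 input samples were not analysed here.

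MBD5 and MBD6 are proteins with a methyl-CpG-binding domain that associate with the Polycomb repressive deubiquitinase (PR-DUB) complex, which removes ubiquitin from histone H2A. In CLIP, RNA is crosslinked to protein by ultraviolet light, trimmed with a nuclease, precipitated with the protein and sequenced, so that a pile of reads marks a stretch of RNA that lay close to the protein. The nuclease used here, RNase T1, cuts RNA after guanosine.

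The Flag-MBD5 lists held 5362 and 5388 peaks and the Flag-MBD6 lists 9218 and 9587. Read numbers under each summit and the background rate were recovered from the fold enrichment and p-value of each peak, and the lowest background rates corresponded to about 478790 and 500143 reads for MBD5 and 983918 and 1111742 for MBD6, a depth 2.14-fold higher for MBD6. Summit reads of the 2 MBD5 libraries scattered less than counting noise, with a chi-square of 0.539 per degree of freedom over 4019 regions, and the MBD6 pair had the same value of 0.539 over 7484 regions. Each protein was accordingly treated as 1 sample, no test was made between proteins, and all intervals below cover counting error only. MBD5 and MBD6 also stand for different cell lines and library preparations, and protein and preparation cannot be told apart. Of 12 stem cell markers 11 carried a peak in at least 1 library, Sox2, Esrrb, Zfp42, Dnmt3l and Tfcp2l1 in all 4. None of 6 endoderm markers had a peak, and of 6 fibroblast markers Vim alone had one, in 1 library of each protein.

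The sequences at the 5′ ends of MBD5-only regions are shown first because their base content differed from that of the shared regions. Each line is the first 30 nt from the 5′ end of the region, in the sense of the RNA, from GENCODE M21 transcripts on mm10, with every cytidine in capitals. The first set holds the coding-sequence regions with the highest fold enrichment ranks, or with the most reads among those with no MBD6 peak at all.
Actn1 exon 14, chr12:80176248-80176277, minus strand: aaaCCatCgaCCagCtCtaCttagagtaCg
Actn1 exon 17, chr12:80173089-80173118, minus strand: atgCaCggCaCCCtggaggaCCaaCtCagC
Slc38a4 exon 14, chr15:96999539-96999568, minus strand: gatCgCtgCaatCatCatCgCaCtCaaCaa
Cdh1 exon 7, chr8:106657758-106657787, plus strand: tCtCagCCaCCgatgCagaCgatgaCgtCa
Actn4 exon 2, chr7:28919031-28919060, minus strand: agCCtggtgCaaCtCtCatCttCggaaggC
Fn1 exon 9, chr1:71641240-71641269, minus strand: taCaaCaaCCggaattaCaCCgaCtgtaCt
Fn1 exon 37, chr1:71599645-71599674, minus strand: aCtaCaagatCCaCCtgtaCaCtCtgaaCg
Mesd exon 1, chr7:83892413-83892442, plus strand: aaaaagaaggaCatCCgCgattaCaaCgat
2510039O18Rik exon 2, chr4:147945360-147945389, plus strand: ttCagtgtggCCtCCCtCatCaCCCtCttC
Gaa exon 12, chr11:119278311-119278340, plus strand: CCaCCaattCCtCtCCaCaCaCtaCaaCCt
Plxna1 exon 18, chr6:89332152-89332181, minus strand: agCtCCtCCttCCtCtaCtaCCCggaCCCt
These 11 windows held 9 to 15 cytidines of 30 positions, except that of Mesd with 6. The next set holds the coding-sequence regions of Hspg2, the gene with the most MBD5-only regions.
Hspg2 exon 23, chr4:137518738-137518767, plus strand: ttCtCttCCttCCaCaaCCtCCtgtCtgaa
Hspg2 exon 26, chr4:137519691-137519720, plus strand: gCtgtgCCagagaaCaCCggCCaggaCtCa
Hspg2 exon 42, chr4:137535644-137535673, plus strand: tgCagCCCtCCgaCgCCggCgtCtaCatCt
Hspg2 exon 51, chr4:137541438-137541467, plus strand: aatCCtCgtCCtCCCaCgtggCCgaaggaC
Hspg2 exon 59, chr4:137544647-137544676, plus strand: CataCtCtggaCCtgaaCtgCCtggttgCC
Hspg2 exon 64, chr4:137548379-137548408, plus strand: tCCtCagCCgaCtCgggCgaatatgtgtgC
Hspg2 exon 73, chr4:137553177-137553206, plus strand: aaCCCtCCaCCCaCCatCCaCtggtCCaag
Hspg2 exon 80, chr4:137559346-137559375, plus strand: taCtCCttCCtgCCaCttCCCaCCatCaaa
For contrast, the last set holds shared coding-sequence regions, chosen as those with the highest ratio of MBD6 to MBD5 summit reads.
Dst exon 23, chr1:34178267-34178296, plus strand: agtgatCtggaaCagCagaaaCgggCCCtg
Bod1l exon 10, chr5:41820849-41820878, minus strand: aaaataagCCagatgaCaagaatggtaaag
Bod1l exon 10, chr5:41821755-41821784, minus strand: CtCaatCagaagaCaagCCatCgtCaaaaC
Zfp638 exon 24, chr6:83979688-83979717, plus strand: ttaCtgtggatgaagttggagatgaggaag
Mgea5 exon 9, chr19:45767820-45767849, minus strand: aCCaaggaagaggaaaagaaaCagCCagat
The Hspg2 windows held 9 to 15 cytidines, whereas the 5 contrast windows held 1 to 9. The sets were picked by high enrichment, reads, region count or ratio and do not stand for the averages of their classes.

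The base content of all windows followed the same direction. A window could be read from a transcript for 371 of the 401 MBD5-only regions and for 3401 of the 3618 shared regions. Cytidine made up 28.4% of the first 30 nt of MBD5-only regions and 20.9% of shared regions, a difference of 7.52 percentage points (95% interval 6.37 to 8.66, windows taken as independent). Adenosine made up 30.5% and 37.2%, a difference of -6.69 points (95% interval -7.80 to -5.58). Guanosine was at 23.1% against 26.1% and thymidine, standing for uridine, at 17.98% against 15.8%. The middle 50% of MBD5-only windows spanned 20% to 33.3% cytidine and that of shared windows 13.3% to 26.7%, so the classes overlapped widely and differed in their averages. MBD6 regions with no MBD5 region lay beyond the shared ones, at 19.4% cytidine and 39.3% adenosine over 3563 windows.

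The higher cytidine content extended along the regions. It was 24.4% against 20.9% at positions 10 to 2 nt before the end, 28.3% against 21.8% in the first 10 nt, 28.6% against 20.5% from 11 to 30 nt and 27.5% against 21.4% from 31 to 60 nt. The ratio of observed to expected CpG dinucleotides was 0.639 in MBD5-only and 0.625 in shared windows.

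**Figure D1:**
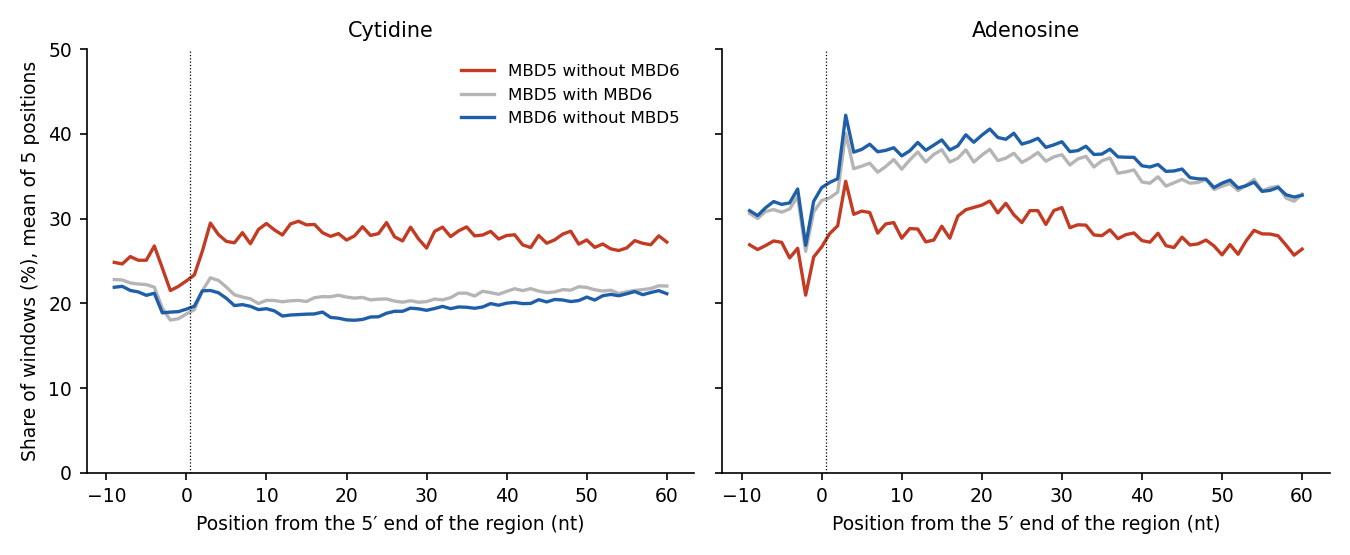
Share of windows (y axis, %, mean of 5 neighbouring positions) with cytidine (left) or adenosine (right) by position from the 5′ end of the region (x axis, nt; the dotted line is the 5′ end), for MBD5-only, shared and MBD6-only regions. The MBD5-only line lies above the others for cytidine and below them for adenosine along the whole stretch, as in the averages of 27.5% against 21.4% cytidine from 31 to 60 nt.

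The difference was present at every level of read number. Among regions with at most 9 mean summit reads cytidine was 22.7% in MBD5-only and 17.0% in shared windows, between 13 and 18 reads it was 28.0% and 19.6%, and above 30 reads it was 38.7% (20 windows) and 22.5% (886 windows). Adenosine in the strongest class was 20.8% against 33.1%. It was also present within genes. In the 155 genes with windows of both kinds cytidine was higher in the MBD5-only windows in 101, lower in 46 and equal in 8, with a median difference of 3.33 points. Over these genes cytidine was 29.0% in MBD5-only and 23.4% in shared windows, a difference of 5.62 points.

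Within the shared regions, which were not part of the chosen set, base content varied with the ratio of MBD6 to MBD5 summit reads. In 3616 shared regions with peaks in all 4 libraries the median log2 ratio was 0.77, under the log2 depth ratio of 1.10. In the fifth of regions with the lowest ratios, median 0.11, cytidine was 25.4% and adenosine 30.6%. The fifth with the highest ratios, median 1.52, had 17.1% cytidine and 42.9% adenosine, and the groups between them were ordered (22.8%, 20.4% and 19.1% cytidine). Across 3399 regions Spearman's rho of the ratio with cytidine was -0.29 and with adenosine 0.39. Computed from the first library of each protein alone these were -0.28 and 0.37, and from the second -0.27 and 0.36. The points share libraries and depth, and the ratio is the same contrast that defined the MBD5-only regions. These values therefore only describe a gradient within the shared regions. In cytidine the MBD5-only regions lay beyond its low-ratio end, at 28.4% against 25.4% in the group with the lowest ratios. Their adenosine was level with that group, at 30.5% against 30.6%. MBD6-only regions, at 19.4% cytidine and 39.3% adenosine, did not lie beyond the group with the highest ratios.

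**Figure D2:**
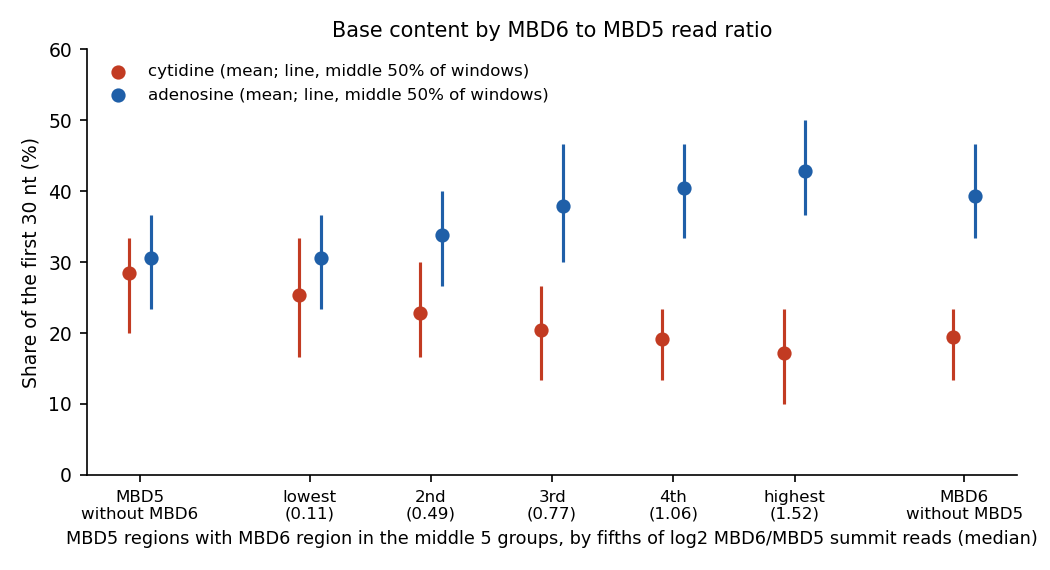
Mean share of cytidine and adenosine in the first 30 nt (y axis, %; vertical lines span the middle 50% of windows) for MBD5-only regions, 5 groups of shared regions by log2 MBD6/MBD5 summit reads (medians in parentheses) and MBD6-only regions. Cytidine declines from 28.4% in MBD5-only regions to 17.1% in the shared regions with the highest ratio while adenosine goes from 30.5% to 42.9%. MBD6-only regions are at 19.4% and 39.3%.

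Short words reflected the same shift. Of all 256 tetramers, counted on the RNA strand only, CATC had the largest excess in MBD5-only windows, present in 25.9% of them against 12.03% of shared, 9.99% of MBD6-only and 13.4% of all MBD5 windows. CCAC was in 19.1% against 8.82% and CTCT in 19.4% against 9.50%. The largest deficits were in AAGA, found in 29.4% of MBD5-only, 59.4% of shared and 69.7% of MBD6-only windows, and in GAAG, found in 31.3%, 58.0% and 65.3%; these overlap each other. The tetramers were picked for their difference and carry no test. Read in frame, GAA codons, which encode glutamate, made up 4.05% of codons in MBD5-only and 9.40% in shared coding windows, and AAG codons for lysine 5.60% and 8.91%. Codons with a higher share in MBD5-only windows included ATC for isoleucine (4.36% against 2.29%), TTC for phenylalanine (2.37% against 0.861%) and AAC for asparagine (4.53% against 2.85%).

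RNase T1 leaves guanosine just before the 5′ end of a fragment. The base at this position was guanosine in 297 of 370 MBD5-only windows (80.3%, 95% Wilson interval 75.9 to 84.0) and in 80.6% of shared windows (79.3 to 81.9), a difference of -0.35 points with an interval from -4.62 to 3.92. The share was lower in MBD6-only windows, at 74.6% (73.2 to 76.0). Among shared regions it was 76.1% (72.6 to 79.2), 74.5% (71.1 to 77.7), 79.3% (76.1 to 82.2), 85.3% (82.5 to 87.8) and 87.1% (84.4 to 89.4) in the 5 groups from the lowest to the highest MBD6/MBD5 ratio.

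MBD5-only regions were weaker than shared ones, in the values that chose them. Their median fold enrichment over local background was 8.61 in library 1 and 8.39 in library 2, against 12.3 and 12.6 for shared regions, and their median summit reads were 13 and 14 against 20 and 20. The highest summit in an MBD5-only region had 63 reads in library 1 and 70 in library 2, and in shared regions 598 and 609. Regions were 170 nt wide at the median, against 187 nt. Reads were extended to 150 bp when peaks were called, so these widths do not measure the length of bound RNA. Background was slightly higher, at a median of 1.55 and 1.58 times the lowest rate of the library against 1.35 and 1.43. Summit reads of the 2 MBD5 libraries were within 1.5 times of each other in 367 of the 401 (91.5%), and the 5′ ends lay within 5 nt in 51.1% of MBD5-only and 52.7% of shared regions.

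The share of MBD5 regions that lacked an MBD6 region depended on read number. It was 29.3% (23.4 to 36.0) at up to 9 mean reads, 16.3% above 9 and up to 13, 11.4% above 13 and up to 18, 7.95% above 18 and up to 30, and 2.20% (1.45 to 3.30) above 30, where 22 of 1002 regions remained.

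**Figure D3:**
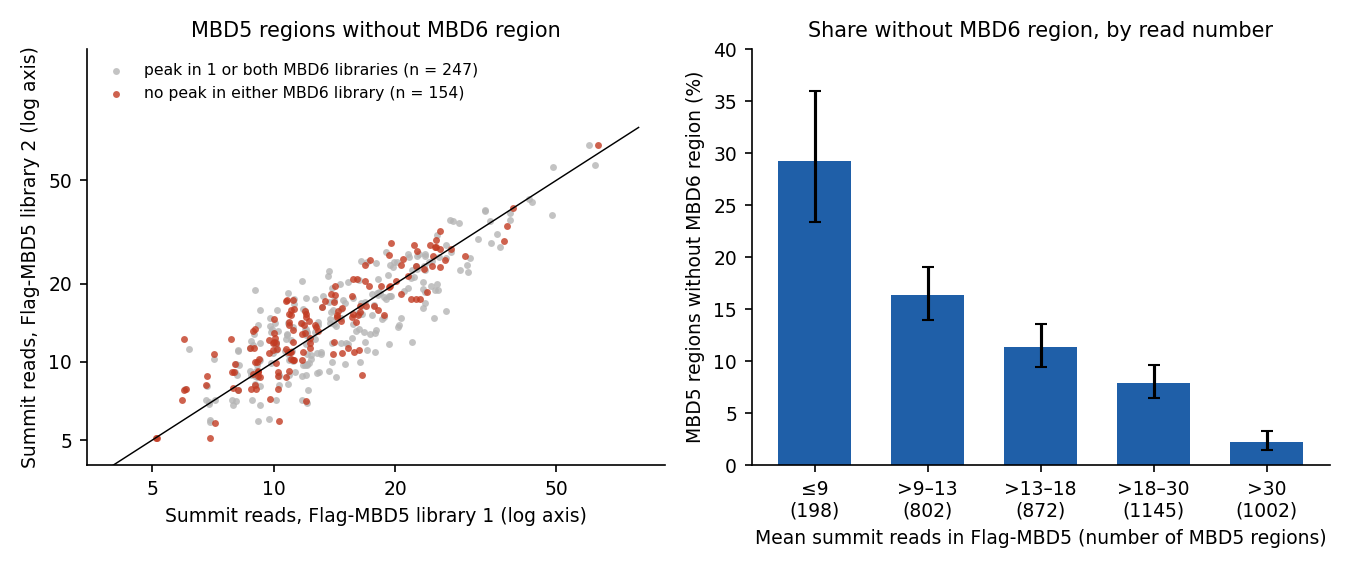
Left, summit reads of the 401 MBD5-only regions in the 2 Flag-MBD5 libraries (both axes log, points slightly jittered; the line is equality), coloured by whether any MBD6 library had a peak. Right, percentage of MBD5 regions with no MBD6 region by mean summit reads (bars, with 95% Wilson intervals), from 29.3% at up to 9 reads to 2.20% above 30.

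Absence of an MBD6 region did not mean absence of an MBD6 peak. Of the 401, 154 (38.4%, 33.8 to 43.3) had no peak in either MBD6 library, which is 3.83% of all MBD5 regions. A further 108 had a peak in MBD6 library 1 only, 137 in library 2 only, and 2 had peaks in both that did not overlap each other. In the 247 regions with an MBD6 peak the log2 ratio of MBD6 to MBD5 summit reads had a median of 0.22, with the middle 50% from -0.11 to 0.54. Here MBD6 reads were averaged only over libraries with a peak, and MBD5 reads over both libraries. An MBD6 library with no peak did not enter, which raises the ratio. It is therefore not comparable with the ratios of shared regions, which sum both libraries of each protein. On the same strand, 15 MBD5-only regions (3.74%) had an MBD6 region within 150 bp and 94 (23.4%) within 1000 bp. None overlapped an MBD6 region on the other strand. Nearby MBD6 regions were not counted for shared regions, so these counts have no level to be read against. At the 110 MBD5-only regions with a peak in MBD6 library 1 the local background, relative to the lowest of that library, was 1.36 at the median against 1.98 in the MBD5 libraries, and at the 139 with a peak in MBD6 library 2 it was 1.38 against 1.57. Absence from a peak list does not give the number of reads below the threshold.

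At the edge of the rule, the MBD5-only region with the highest fold enrichment in a single MBD6 library lay in Ddx27, an RNA helicase gene, at 20.03 in MBD6 library 2 against 10.3 and 9.15 in the MBD5 libraries. The next were the pseudogene Gm6493 (19.9 in MBD6 library 1), Igf2bp1 (18.1), Zfp622 (15.0) and Hnrnpul1 (14.4). Just outside, the shared regions with the smallest overlap lay in Plec, with 10 shared bases, Nipbl with 17, Tmem63b with 89 and Ssrp1 and Prpf3 with 144 each.

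The 10 MBD5-only regions with the best rank of fold enrichment lay in 8 genes. Actn1, which encodes the actin crosslinker alpha-actinin-1, held the first-ranked region, in exon 14 (chr12:80176050-80176277), with fold enrichments of 24.7 and 20.5 and 30 and 25 summit reads in the MBD5 libraries. MBD6 library 2 had 11 reads there and library 1 no peak, which is fewer than in either MBD5 library although the MBD6 libraries were deeper. A region in exon 17 of the same gene had 21 and 26 MBD5 reads and 16 in MBD6 library 2. Actn4, the closely related alpha-actinin-4, had 38 and 36 MBD5 reads in exon 2 and 21 in MBD6 library 1. Slc38a4, an amino acid transporter, had 27 and 25 MBD5 reads in exon 14 and 21 in MBD6 library 2. Cdh1, which encodes the adhesion protein E-cadherin, had 34 and 38 MBD5 reads in exon 7 and 18 in MBD6 library 1. In the 2 leading regions of Fn1, which encodes the matrix protein fibronectin, MBD5 reads were 19 and 28 in exon 9, with no MBD6 peak, and 29 and 23 in exon 37, with 22 in MBD6 library 2. Mesd, a chaperone for LDL-receptor family proteins, had 22 and 23 MBD5 reads and 30 in MBD6 library 2; its window also occurs in another annotated gene, so its placement is uncertain. A region of Hspg2, described below, and 1 in a non-coding RNA were also among the 10; the latter was the snoRNA Snord88c, with 35 and 29 MBD5 reads and 44 in MBD6 library 2.

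Among the 154 regions with no MBD6 peak, the Y RNA gene Rny1, whose small RNA binds the Ro protein, had the most reads, 62 and 70, at fold enrichments of only 5.43 and 6.93 over a high local background. The uncharacterized gene 2510039O18Rik followed with 40 and 39 reads in exon 2, at still lower fold enrichments of 4.97 and 3.84. Gaa, which encodes the lysosomal alpha-glucosidase, had 28 and 27 reads in exon 12, and Plxna1, a semaphorin receptor, 25 and 28 in exon 18. Their fold enrichments were 11.1 and 8.91, and 7.74 and 6.65. A region in the last exon of Slc2a3, the neuronal-type glucose transporter GLUT3, lay in its 3′ UTR with 37 and 30 reads, and a region at Mir5099 had 25 and 29. Fold enrichments were low in both, at 5.21 and 5.66 in Slc2a3 and 5.18 and 5.68 at Mir5099. Hspg2 filled 4 of these 10 places, with fold enrichments from 4.33 and 3.86 in exon 23 to 17.2 and 14.5 in exon 51.

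Hspg2 encodes perlecan, a large heparan sulphate proteoglycan of basement membranes. It held 10 MBD5 regions, 9 of them MBD5-only, against 9.98% over all MBD5 regions, and 7 of the 9 had no peak in either MBD6 library. The 9 regions were spread over exons 23, 26, 42, 51, 59, 64, 73, 80 and 97 of 97. The last lay in the 3′ UTR and the other 8 in coding sequence. In exon 51 (chr4:137541438-137541638) the MBD5 libraries had 30 and 26 reads at fold enrichments of 17.2 and 14.5, and in exon 64 (chr4:137548379-137548572) 27 and 24 reads at 16.1 and 14.2. The region with the most reads, in exon 73 (chr4:137553177-137553453), had 42 and 43, and MBD6 library 1 had a peak of 31 reads there. In exon 80 there were 22 and 21 MBD5 reads and 20 in MBD6 library 1. The MBD5 libraries differed by at most 5 summit reads in any of the 9 regions. The only shared region of the gene, in exon 69, had 15 and 19 MBD5 reads and 14 and 16 MBD6 reads. Cytidine made up 39.3% of the MBD5-only windows of Hspg2 and 20% of this shared window.

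**Figure D4:**
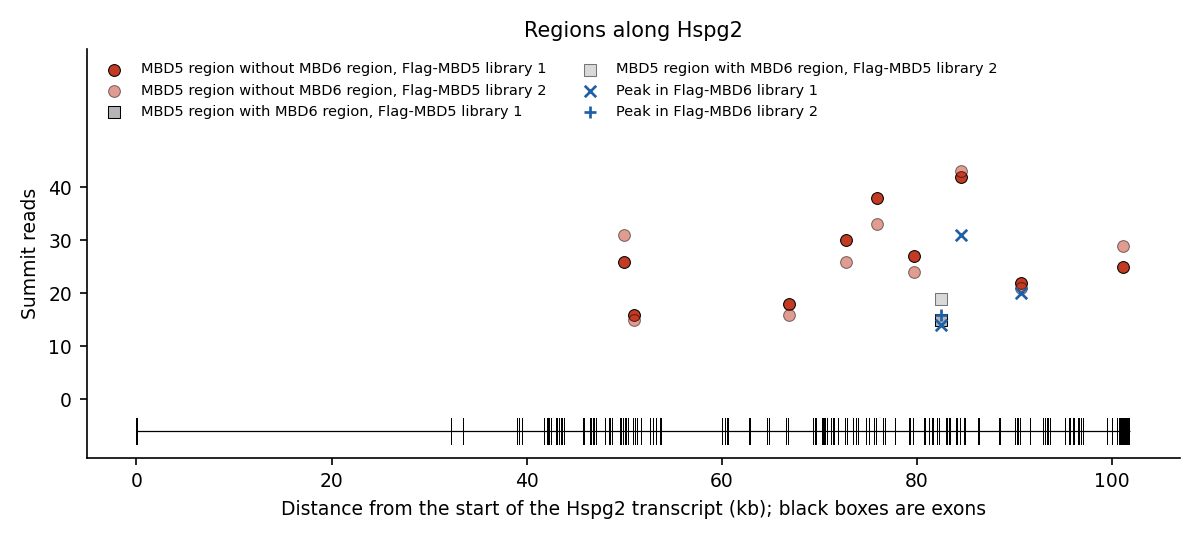
Summit reads (y axis) of the regions along Hspg2 against distance from the start of the transcript (x axis, kb), with exons as black boxes; circles are MBD5-only and squares shared MBD5 regions in the 2 MBD5 libraries, crosses are MBD6 peaks. All 9 MBD5-only regions have 15 to 43 reads in both MBD5 libraries, and MBD6 peaks appear at only 2 of them and at the shared region.

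MBD5-only regions fell in 292 annotated genes, and 17 lay in no annotated gene. In 241 genes there was 1, in 30 there were 2 and in 21 there were 3 or more. MBD5 regions of any kind fell in 2212 genes. Of the 292 genes, 162 also held a shared MBD5 region and 97 held no MBD6 region at all. Genes outside the 292 held only shared MBD5 regions by the rule, so these counts are a description. Shared regions in genes with an MBD5-only region had a median log2 MBD6/MBD5 ratio of 0.47 (566 regions), against 0.83 in other genes (3050 regions). This ratio is the contrast that defined the MBD5-only regions and is given as a description.

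The 21 genes with 3 or more held 83 MBD5-only regions among 220 MBD5 regions, a share raised by the choice of these genes. Over all MBD5 regions it was 9.98%, and in single genes it ran from 14.3% in Myh9 to 90% in Hspg2. Several encode scaffold and cytoskeleton proteins. Iqgap1, a scaffold linking actin to signalling, held 7 among 17 MBD5 regions, 5 of them without any MBD6 peak, with mean reads from 8.5 to 15.5. Sptbn1 and Sptan1, the spectrin beta and alpha chains that line the membrane, held 6 of 19 and 4 of 19. Myo18a, an unconventional myosin, held 4 of 6, the alpha-actinins Actn1 and Actn4 3 of 7 and 3 of 8, the membrane linker Ezr 3 of 10, the crosslinkers Plec and Macf1 3 of 6 and 3 of 17, Myh9, a non-muscle myosin heavy chain, 3 of 21 and the junctional gene Cgnl1 3 of 7. Membrane and matrix genes besides Hspg2 were Slc2a3 (5 of 7), Fn1 (4 of 14), Cdh1 (3 of 10) and the endothelin-converting enzyme Ece1 (3 of 4). The remaining genes were the ubiquitin ligase Huwe1 (4 of 15), the core spliceosome gene Prpf8 (4 of 7), the glycolytic enzyme Pkm (3 of 7) and Hnrnpul1 (3 of 4). In 20 of the 21 genes the median log2 ratio at the shared regions was under the 0.77 of all shared regions, the exception being Hnrnpul1 at 0.95 with 1 such region. The genes were chosen by the same contrast, so this is a description and no support. The values of Hspg2 and Ece1 also rest on 1 region each. The lowest median was -0.32 in Plec.

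**Figure D5:**
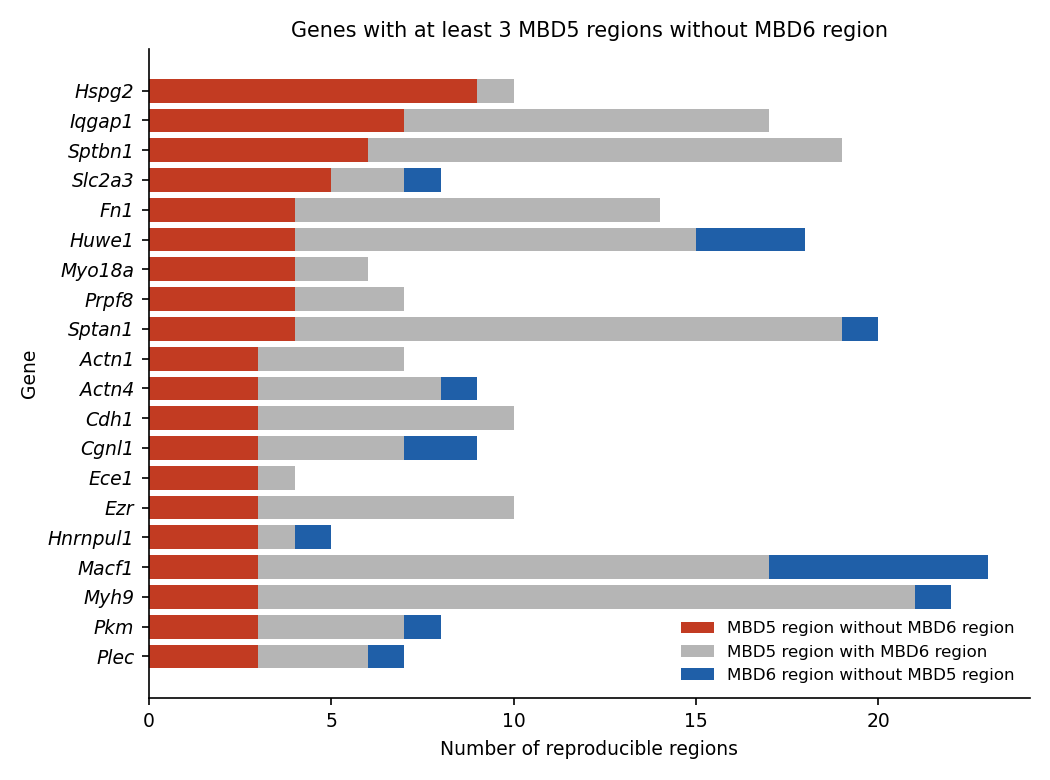
Number of reproducible regions (x axis) in 20 genes with at least 3 MBD5-only regions, stacked by MBD5-only, shared and MBD6-only regions. Hspg2 stands out with 9 of its 10 regions MBD5-only, whereas Myh9, Macf1, Sptan1 and Sptbn1 hold mostly shared regions.

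Slc2a3 showed how regions of one transcript could differ. Its most read region, in the coding part of exon 10, had 59 and 68 MBD5 reads and peaks of 48 and 53 reads in the MBD6 libraries that lay apart from each other. The region at the 5′ end of the transcript had 33 and 39 MBD5 reads and 42 in MBD6 library 2, the region in exon 9 had 34 and 34 and 30 in MBD6 library 1, and the region in exon 4 had 24 and 20 and 17 in MBD6 library 2. The 3′ UTR region alone lacked an MBD6 peak.

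Gene lists were read against the 9.98% of all MBD5 regions that were MBD5-only, a level that ranged from 3.83% to 24.4% under other rules for calling and sharing regions and was 18.7% without MBD5 library 1, 19.0% without MBD5 library 2, 6.52% without MBD6 library 1 and 7.29% without MBD6 library 2. Of the genes for basement membrane and extracellular matrix, 8 of 17 had an MBD5 region, and 18 of their 43 regions were MBD5-only (41.9%, 28.4 to 56.7), 12 of them with no MBD6 peak. Besides Hspg2 with 9 and Fn1 with 4 these were Lama5 and Nid2 with 2 each and Lama1 with 1, which encode laminin chains and a nidogen. Without Hspg2, a count made after seeing the data, it was 9 of 33 (27.3%, 15.1 to 44.2). Under the other rules the share of this list moved with the level, from 27.9% (16.7 to 42.7) beside 3.83% to 55.9% (43.3 to 67.8) beside 18.7%. With the same number of peaks per library it was 53.5% (38.9 to 67.5) beside 24.4%. That was 2.19 times the level, against 4.20 times in the main setting. Actin- and spectrin-linked giant genes had 27 of 137 (19.7%, 13.9 to 27.2) in 10 genes, which became 7.30% (4.01 to 12.9) beside 3.83% and 39.4% (31.6 to 47.8) beside 24.4%. Large surface receptors had 6 of 30 (20%, 9.51 to 37.3) in Cdh1, Fat1 and Lrp6, an interval that holds the 9.98%. The intervals of all lists count regions of a gene as independent, and the lists were chosen with earlier results of these data known. They are therefore no test of a list against the 9.98%. The median log2 MBD6/MBD5 ratio at the shared regions of these 3 lists was 0.30, 0.25 and 0.14, in that order, again given as a description.

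Among the other lists, translation factors had 5 of 53 (9.43%, 4.10 to 20.3), in Eif3b, Eef2, Eif4g1 and Eif5b. Chromatin remodellers and methyltransferases had 6 of 74 (8.11%, 3.77 to 16.6), in Chd3, Ep400, Kmt2a, Nsd1 and Srcap, and their shared regions had a median log2 ratio of 1.08. HSP90 and HSP70 chaperones had 1 of 40 (2.50%, 0.443 to 12.9), in Hsp90aa1. Ribosomal protein genes had 1 of 46 (2.17%, 0.385 to 11.3), in Rpl36. Both of these windows have exact copies in other annotated genes. These shares also depended on the rule. With the same number of peaks per library, 24.4% of all MBD5 regions were MBD5-only. Ribosomal protein genes then had 23.9% (13.9 to 37.9) and the chaperones 17.5% (8.75 to 31.95). Translation factors had 15.1% (7.85 to 27.1) and chromatin remodellers and methyltransferases 12.2% (6.53 to 21.5) in that setting. TET enzymes and RNA m5C writers and readers had 0 of 14 (upper Wilson bound 21.5%).

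In the list of PR-DUB and its partners only 2 MBD5 regions were found, and 1 was MBD5-only. It lay in Mbd5 itself (chr2:49298662-49298811, exon 8), with 9 and 9 reads and no MBD6 peak. The Flag-MBD5 cells carry an MBD5 transgene that the Flag-MBD6 cells lack, and reads from the transgene and from the endogenous transcript cannot be told apart in the peak lists. Among the stem cell markers 1 of 4 MBD5 regions was MBD5-only, in the 3′ UTR of Esrrb, with 12 and 16 MBD5 reads and 16 in MBD6 library 2.

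Most MBD5-only regions began in coding sequence, as shared ones did. The class at 15 nt inside the 5′ end was coding sequence for 315 of 401 (78.6%, 74.3 to 82.3) against 77.6% (76.2 to 78.9) of shared regions. Taken at the midpoint of the region, which can run past the end of the exon, the share was 49.9%. Non-coding exons made up 9.23% (6.77 to 12.5) against 17.5% (16.3 to 18.8) of shared and 9.68% (8.79 to 10.6) of MBD6-only regions. Regions in 3′ UTRs were 16 of 401 (3.99%, 2.47 to 6.38) against 0.940% (0.673 to 1.31) of shared and 1.35% (1.04 to 1.77) of MBD6-only regions, and of the 154 regions with no MBD6 peak 10 lay in a 3′ UTR (6.49%, 3.56 to 11.5). Besides Hspg2 and Slc2a3 they included Pkm with 2 and Gaa, Aplp2, Mdm2, Ctsz and Dst with 1 each. Regions in 5′ UTRs were 10 (2.49%, 1.36 to 4.53) against 1.19% (0.884 to 1.597) of shared and 1.33% (1.014 to 1.74) of MBD6-only regions, among them Pabpc1, which encodes the poly(A)-binding protein, with 50 and 57 MBD5 reads and 58 in MBD6 library 2, and Fth1, the ferritin heavy chain. Within coding sequence they started at 0.523 of its length at the median (shared 0.470), and 65.4% began less than 150 nt from the end of the exon (shared 58.0%, MBD6-only 64.3%).

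In small RNA genes and pseudogenes the share of MBD5-only regions was compared with both other classes. There were 10 regions in snoRNA genes (2.49%, 1.36 to 4.53), against 4.86% (4.21 to 5.61) of shared and 0.868% (0.622 to 1.21) of MBD6-only regions. Processed pseudogenes held 19 (4.74%, 3.05 to 7.28), against 7.85% (7.02 to 8.77) of shared and 5.69% (5.01 to 6.46) of MBD6-only regions. A further 2 lay in snRNA genes and none in annotated rRNA genes. Snord88c and Snord73a, a pair of small RNAs of the box C/D class, were read best with Gm25128; Snord73a had 16 and 18 MBD5 reads and 27 in MBD6 library 2. The window of 45 of 371 MBD5-only regions (12.1%, 9.19 to 15.8) occurred exactly in another annotated gene, against 18.8% of shared regions, and in 29 of the 45 such a copy lay in a gene with an MBD6 region. Genes with such a window included Hist1h4m, Hist1h2bn, Tuba1c, Hnrnpk and Set. For the 29, an assignment of the same reads to different copies could not be told apart from a difference between the proteins. Without windows that have a copy, cytidine was 29.0% in MBD5-only and 20.7% in shared regions.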

How the data were processed

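The deposited files were peak lists of 4 CLIP libraries. The authors trimmed and collapsed reads, removed rRNA, aligned with Bowtie 1.0.0 to mm10, allowing reads with several best positions, 1 of which was kept, split strands with SAMtools 1.16.1 and called peaks per library and strand with MACS2, version 2. Each deposited peak carries a score (10 times the −log10 q), a fold enrichment ratio over local background, −log10 p-value, −log10 q-value and a summit. All q-values were at most 0.00822. Multi-copy genes are therefore uncertain. The labels name both a Flag and an MBD6 antibody; the study's methods name Flag.

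Summit reads and background were solved from fold enrichment and p-value, treating the fold as reads plus 1 over rate plus 1; depth assumed a genome of 130000000 bp and reads extended to 150 bp. Regions were annotated with GENCODE M21 on mm10, 15 nt inside the 5′ end, and the first 30 nt were read from the transcript. Shares have 95% Wilson intervals. Scripts ran in Python 3.11.15 with SciPy 1.17.1 and were tested on simulated data. Regions, gene lists and naming rules were chosen with earlier results of these data known. Genes were named by rank of fold enrichment (10 regions), reads where MBD6 had no peak (10 regions), at least 3 regions, the edge of the rule, or a list; other genes, and the tetramers and codons, were named after their values were seen. Of the genes with at least 3 regions, 1 is not reported here.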

Additional observations from a re-analysis of the deposited data

How the results depend on the processing

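No paired analysis was possible because none of the results comes from a test. In each setting tried the cytidine difference stayed positive and the adenosine difference negative, whereas the number of regions depended strongly on the rule. Requiring reciprocal overlap of 50%, 15.2% of MBD5 regions were MBD5-only and 24.8% of these had no MBD6 peak, with differences of -3.53 points for adenosine and 4.55 for cytidine and a median fold enrichment of 9.20. Counting a peak of either MBD6 library as shared left 154 regions, 3.83% of MBD5 regions and by construction 100% without a peak, with guanosine before 84.4% of 5′ ends, a guanosine difference of 3.96 points, an adenosine difference of -8.55 points and a median fold enrichment of 8.19. When each list was cut to the length of the shortest, best q first, there were 980 regions, 24.4% of MBD5 regions, 57.0% of them with no MBD6 peak, with differences of -5.06 for adenosine and 5.51 for cytidine and a median fold enrichment of 9.12; 398 of the 401 were kept. The share in coding sequence was 49.9% at the midpoint and 55.9% at the best summit.

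Leaving out 1 library in turn, so that all peaks of its partner counted, gave 262 (without MBD6 library 1) to 1017 regions (without MBD5 library 2), 6.52% to 19.0% of MBD5 regions, 51.5% to 100% of them with no peak in the remaining MBD6 libraries and a median fold enrichment of 7.87 to 8.66. Without MBD5 library 1 there were 1005 and without MBD6 library 2 293. The cytidine difference was 7.003 to 7.84 and the adenosine difference -7.37 to -6.35.

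Settings added after seeing the data gave, with 1 region per gene, a guanosine difference of 4.18 and an adenosine difference of -5.56, and in genes with both kinds of region -4.15 for adenosine and 5.62 for cytidine. The cause of these changes was not tested. MBD5 depth limits the weakest regions, of which the smallest had 5 summit reads.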

Other observations

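A few MBD5-only regions outside the gene groups above had high read numbers, and these were picked after their values were seen. Apoe, which encodes a lipid carrier, had 63 and 56 MBD5 summit reads in its coding sequence and 47 in MBD6 library 2. Polr2a, the largest subunit of RNA polymerase II, had 28 and 35 MBD5 reads and 45 in MBD6 library 2, with 53.3% cytidine in its window. Lamp1, a lysosomal membrane protein, had 32 and 30 and 21 in MBD6 library 1, with 56.7% cytidine. Sulf2, a heparan sulphate sulphatase, had 36 and 27 and 37 in MBD6 library 2. Mean fold enrichment in the MBD5 libraries was 4.52 for Apoe, 7.10 for Polr2a and 11.2 for Lamp1, and at most 6.56 for Sulf2. The median of all MBD5-only regions was 8.61. The highest cytidine content, 63.3%, was in the 5′ UTR region of Pabpc1.

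The genes that follow were also picked after their values were seen, and 9.98% of all MBD5 regions were MBD5-only. Both MBD5 regions of Bcor, a Polycomb-associated corepressor, were MBD5-only, with 11 and 9 reads in exon 7 and 10 and 14 in exon 9. Each had a peak in MBD6 library 2, and the gene also held 1 MBD6-only region. Lama5, Tenm4, Epha4 and Srebf2 had 2 MBD5-only regions each and no MBD6 region. In Lama5, Epha4 and Srebf2 only 1 of the 2 lacked any MBD6 peak, and in Tenm4 both did.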
